A study of Sus scrofa with 24 samples.

Results

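The genes described here are the machinery with which liver cells fold, check and ship secreted proteins, together with the sensors that respond when unfolded protein builds up in the endoplasmic reticulum (ER). The list held 46 gene symbols, grouped by their function with earlier results of these data known, and 29 of them were found among the 13463 genes of the count table. All 29 passed the filter on low counts, among 8279 genes tested in all. For 1 of them, SYVN1, the gene name table gives the identifier in the files another name, FAU, a neighbouring gene, so what that row measures is uncertain. The other 17 (DNAJB9, DNAJB11, DNAJC3, SDF2L1, MANF, P4HB, ERO1B, XBP1, ERN1, TRIB3, EDEM1, DERL2, DERL3, SEC61A1, SSR3, SPCS3 and SEC23B) were not analysed here.

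Liver RNA was sequenced from 24 hybrid fattening pigs, with 1 library per animal. Of these, 8 received Sustanon, a mixture of testosterone esters, at 4 mg/kg body weight from a 250 mg/mL solution: 3 castrated boars, 3 sows and 2 uncastrated boars. Another 8 received Myodin, a nandrolone ester, at 5 mg/kg from a 25 mg/mL solution: 2 castrated boars, 3 sows and 3 uncastrated boars. The 8 controls were untreated: 3 castrated boars, 3 sows and 2 uncastrated boars. Injections were intramuscular, 5 in all, the first on day 94 and then every 4 days. The young females are called sows here as in the sample labels. The treated pigs had also had a single trial injection of the same drug earlier. Each group had its own pens and controls a separate room, so treatment and housing cannot be told apart, and uncastrated boars make androgens of their own.

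Proteins bound for the blood enter the ER through the SEC61 channel, are folded there by chaperones such as HSPA5 and HSP90B1, and leave in COPII vesicles. When folding falls behind, the sensors ATF6, IRE1 (ERN1) and PERK (EIF2AK3) start the unfolded protein response, which raises chaperones, slows translation and sends damaged protein to the proteasome. PERK acts largely through ATF4, which induces genes of amino acid supply and glutathione turnover, such as ASNS and CHAC1. Hepatocytes secrete most plasma proteins and keep this machinery at a high level.

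Libraries held 9267780 to 14017276 counts. The summed level of the 3 hepatocyte markers found (ALB, APOA1 and TTR) had medians of 148669 TPM, the length-corrected abundance, under Sustanon, 120538 TPM under Myodin and 147931 TPM in controls. Counts of the Y-linked genes EIF1AY and KDM5D went against the labelled sex in 3 control libraries. The library labelled castrated boar 15 had 1 and 0 counts, sow 16 had 476 and 35, and sow 18 had 434 and 95. For the main calls and class comparisons the values without these libraries are given where they bear on the result. Without sows 16 and 18 a single control sow remains, so separation of treated from control sows cannot be checked without them.

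The folding and secretion genes spanned a wide range of levels on the per-length TPM scale. SSR2, a subunit of the translocon-associated TRAP complex, was the highest with a median over the 24 animals of 1684 TPM. It was followed by the calcium-binding lectin chaperone CALR at 974 TPM, the disulfide isomerase PDIA3 at 736 TPM and the HSP70-type chaperone HSPA5, also called BiP, at 619 TPM. CREB3L3, a liver-enriched membrane-bound transcription factor, had 586 TPM and HSP90B1, the ER form of HSP90, had 509 TPM. Of the PERK branch, ATF4 had 64.5 TPM, and 4 genes lay at the low end of the list: DDIT3 (CHOP) at 10 TPM, EIF2AK3 at 7.1 TPM, asparagine synthetase ASNS at 1.93 TPM and CHAC1 at 1.41 TPM. The 29 genes together took 1.04% ± 0.156 of all counts under Sustanon, 1.12% ± 0.195 under Myodin and 1.06% ± 0.159 in controls (SD, n = 8 each), which differ by less than the spread within a group.

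Sustanon against control asks whether testosterone esters altered this machinery. A single gene of the 29 rose, CHAC1, and none fell. CHAC1 encodes a gamma-glutamylcyclotransferase that breaks down glutathione and is a known target of ATF4 and CHOP. It was called by edgeR's quasi-likelihood test at a Benjamini-Hochberg adjusted p under 0.05, so 3.45% of the members were called beside 5.07% of all genes tested. When the log2 fold change also had to reach 1 in size, it was still 1 member, beside 1.56% of all genes.

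CHAC1 (ENSSSCG00000038521) lies on Sscrofa11.1 at chr1:130360510-130363332. In controls its level was 0.2, 0 and 0.528 CPM (TMM-scaled counts relative to library size) in castrated boars 13, 14 and 15, 0.505, 0 and 0 CPM in sows 16, 17 and 18, and 2.49 and 0.305 CPM in uncastrated boars 25 and 27. Under Sustanon it was 1.98, 15.9 and 1.23 CPM in castrated boars 1, 2 and 3, 2.7, 34.4 and 12.1 CPM in sows 4, 5 and 6, and 28.2 and 16.1 CPM in uncastrated boars 19 and 20. Thus 6 of 8 treated animals lay above every control, and 7 of 8 controls lay below every treated animal, the exception being uncastrated boar 25. A count of 0 allows up to 3 counts, or 0.21 to 0.34 CPM in these libraries, for counting error only.

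Mean CHAC1 was 14.1 ± 12.3 CPM under Sustanon and 0.503 ± 0.831 CPM in controls (SD, n = 8 each). The fitted log2 fold change was 4.76 (SE 1.24, 95% interval 2.20 to 7.32), a 27-fold rise, with an edgeR adjusted p of 0.0264. The size is imprecise: the log2 fold change was 5.99 without control uncastrated boar 25 and 5.74 with class as a covariate. By limma on the deposited log2 TPM values it was 2.98 (SE 0.75). An exact two-sided permutation test of mean log2 CPM over all 12870 splits gave a difference of 4.26 and an unadjusted p = 4.66e-04. It used the same libraries, for CHAC1 alone and without regard to class, so it is not separate support. The fitted rise was 4.6 in castrated boars, 6.71 in sows and 3.94 in uncastrated boars. Control sows 17 and 18 had no CHAC1 count, so the size in sows rests on control sow 16, whose Y-linked counts go against its label. The call did not survive every removal of libraries. Without the 3 libraries that go against their labels the log2 fold change was 4.5 with an adjusted p of 0.179, in a fit that called 0 of all genes by edgeR (1199 at an unadjusted p under 0.05). It was also lost without Sustanon sow 5 (0.0563), Sustanon uncastrated boar 19 (0.0558), control castrated boar 13 (0.0551) or 14 (0.0521), or control sow 17 (0.0523), with log2 fold changes of 4.43 to 4.64 in these 5 fits.

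**Figure D1:**
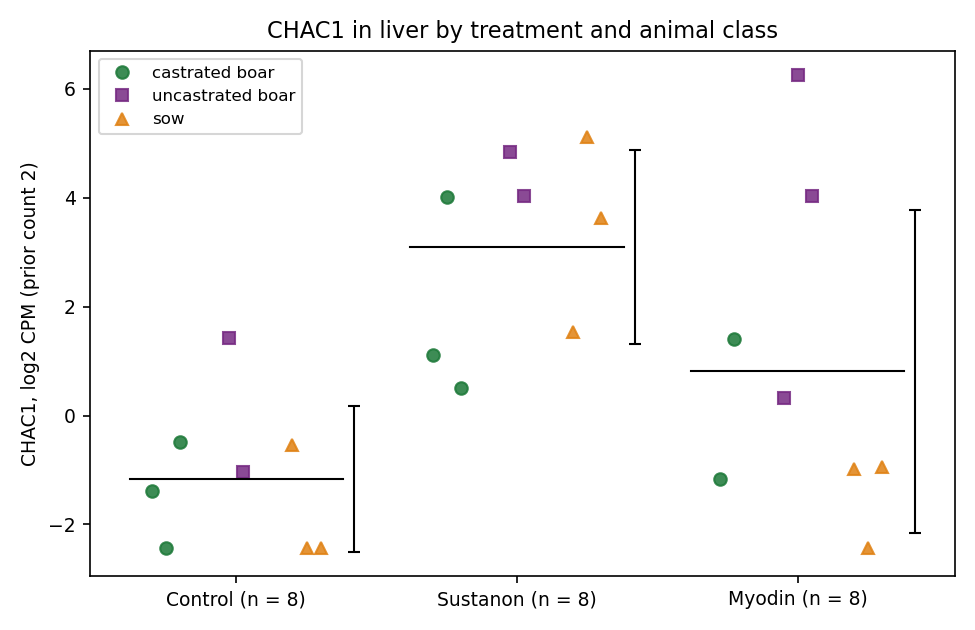
CHAC1 in each of the 24 livers as log2 CPM with a prior count of 2, by treatment, with the animal class as colour and shape. Horizontal lines are means of 8 animals and bars beside them are 1 SD. The 3 controls and 1 Myodin sow without a CHAC1 count sit at the bottom, the Sustanon animals lie above 7 of 8 controls, and Myodin uncastrated boars 23 and 24 stand with the Sustanon animals.

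None of the other measured members of the PERK branch was called. EIF2AK3, the sensor itself, stood at 0.28 (edgeR adjusted p = 0.196). ATF4 had 252 ± 45.4 CPM under Sustanon and 214 ± 39.3 CPM in controls, a log2 fold change of 0.23 (edgeR adjusted p = 0.49). Across the 24 animals ATF4 and CHAC1 had r = 0.59 on deviations from treatment means, given as a description. ASNS, the other gene found of those grouped here as ATF4 targets, had 4.17 ± 1.30 and 4.53 ± 1.39 CPM. Its log2 fold change was -0.12 (edgeR adjusted p = 0.84). Outside the list, 1 of 19 further ATF4 and amino acid response genes was called higher, PSPH, beside 3.39% of all genes called higher. That call, described below, was lost without the 3 libraries that go against their labels, in a fit that called no gene at all. DDIT3, the transcription factor CHOP, had 10.2 ± 1.66 and 11.4 ± 3.92 CPM and a log2 fold change of -0.16 (edgeR adjusted p = 0.702). For ATF4, ASNS and DDIT3 the treatment groups overlapped over all classes. In sows, 2 of 29 members, ATF4 and CHAC1, were higher in every Sustanon animal than in every control. That is a smaller share than the 9.65% of all genes. Control sows 16 and 18 are libraries that go against their label. The fitted log2 fold change of ATF4 in sows was 0.54 (SE 0.21), and 0.53 without the 3 libraries that go against their labels. Whether the changes of ATF4, ASNS and DDIT3 differ from that of CHAC1 was not tested.

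Over all classes together, none of the chaperones of the ER lumen was called. HSPA5, the chaperone most used as a mark of ER stress, ranged from 591 to 1187 CPM under Sustanon (median 870 CPM) and from 620 to 1398 CPM in controls (median 953 CPM). Its log2 fold change was -0.09 with a 95% interval of -0.53 to 0.35. That interval leaves out a doubling in either direction. HYOU1 stood at 0.29 (-0.24 to 0.81) and CRELD2 at 0.21 (-0.43 to 0.86). These pooled values average over animal classes in which the same genes had opposite orders, as described for castrated and uncastrated boars. Of the 29 genes, 28 had an absolute log2 fold change under 0.5 and an interval within ±1, beside 88.8% and 86.9% of all genes tested; CHAC1 was the exception to both. The median log2 fold change was 0.03 over the members and -0.01 over all genes, and 6 members had an unadjusted p under 0.05 (20.7%, beside 19.6% of all genes).

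Those 6 were CHAC1 and 5 small differences that were not called. KDELR3, a receptor that returns escaped ER proteins from the Golgi, had 118 ± 37.3 CPM under Sustanon and 86.0 ± 20.5 CPM in controls, with a log2 fold change of 0.46 (SE 0.18, edgeR adjusted p = 0.149). The row named SYVN1, of uncertain identity, stood at -0.29 (SE 0.12, adjusted p = 0.16); without it 5 of 28 members had an unadjusted p under 0.05. CREB3L3 stood at 0.28 (SE 0.12, adjusted p = 0.191). The kinase EIF2AK3 stood at 0.28 (SE 0.12, adjusted p = 0.196) and DERL1, a channel component of the degradation pathway, at -0.18. No member separated the 8 Sustanon animals fully from the 8 controls, which 0.471% of all genes did.

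**Figure D2:**
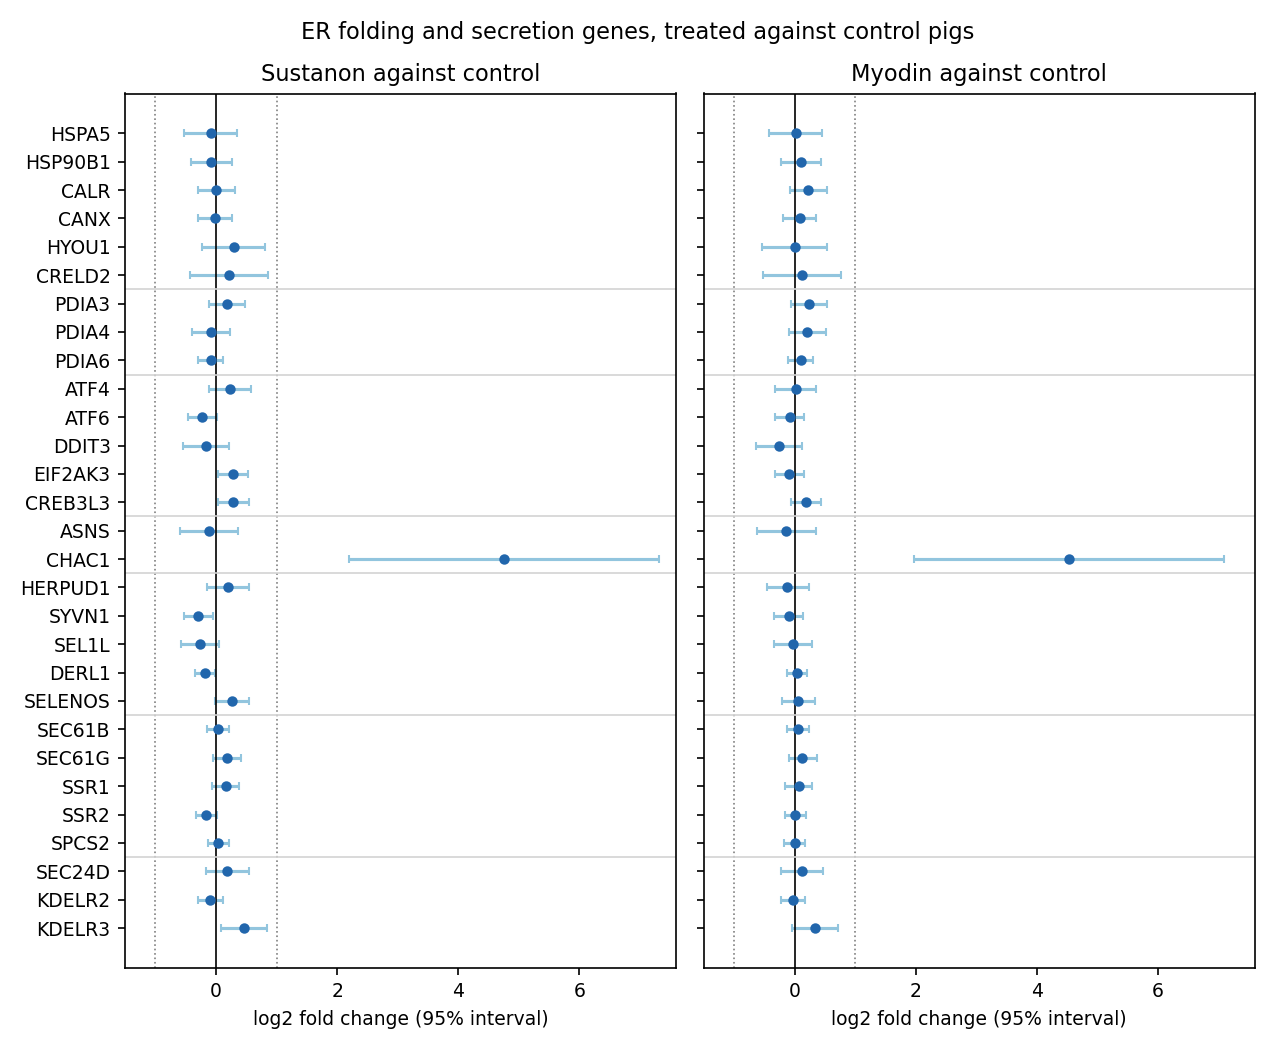
Log2 fold change of each of the 29 genes against control with its 95% interval, for Sustanon (left) and Myodin (right); grey lines separate the role groups and dotted lines mark a log2 fold change of 1 in either direction. In both panels 28 of 29 intervals lie within the dotted lines and CHAC1 lies far to the right.

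Myodin against control asks the same of nandrolone. No member was called, and edgeR called 0 of all genes (0%), with 597 at an unadjusted p under 0.05 (7.21%), 1 of them a member. DESeq2 called 0 members as well. The median log2 fold change was 0.06 over the members and 0.00 over all genes. Among the uncalled members KDELR3 had a log2 fold change of 0.33 (edgeR adjusted p = 0.73), PDIA3 of 0.24 (0.762), CREB3L3 of 0.19 (0.782) and CALR of 0.22 (0.79).

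The member with an unadjusted p under 0.05 was CHAC1, and here the animals split. Its level was 0.264 and 2.47 CPM in castrated boars 8 and 9, 0.322, 0 and 0.336 CPM in sows 10, 11 and 12, and 1.07, 76.6 and 16.2 CPM in uncastrated boars 22, 23 and 24. Boar 23 was the highest of all 24 animals, and 2 of 8 Myodin animals lay above every control. These boars, 23 and 24, also had the lowest summed hepatocyte markers of all animals, 82434 and 75942 TPM, beside 83843 TPM in Myodin sow 10, whose CHAC1 was 0.322 CPM. They had the lowest summed red blood cell markers as well, 1395 and 490 TPM, and boar 23 had the highest summed leukocyte markers, 484 TPM. The part of these in the CHAC1 level was not tested.

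Over the 8 Myodin animals mean CHAC1 was 12.2 ± 26.6 CPM, and the log2 fold change was 4.54 (SE 1.24, edgeR adjusted p = 0.35; exact permutation p = 0.112). Without uncastrated boars 23 and 24, a removal chosen after seeing the data, it was 0.63 with an adjusted p of 0.919. CHAC1 in Sustanon against Myodin had a fitted log2 fold change of 0.22 (edgeR adjusted p = 0.929) and an exact permutation p of 0.0839 for a difference in mean log2 CPM of 2.28. The fitted value follows group means, to which boar 23 adds the most. In castrated boars and sows only, CHAC1 was called, with a log2 fold change of 3.92 and an edgeR adjusted p of 0.0241, in a fit that called 4.08% of all genes.

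Between Sustanon and Myodin with all animals, edgeR called 0 members, so CHAC1 was not called either, beside 0.664% of all genes. Of the members, 2 had an unadjusted p under 0.05 (18.1% of all genes did). The absence of calls does not show that the members were alike under both drugs. EIF2AK3 was 21.8 ± 2.42 CPM under Sustanon and 16.9 ± 3.71 CPM under Myodin, a log2 difference of 0.36 (SE 0.12, adjusted p = 0.12). DERL1 was 114 ± 14.6 and 133 ± 13.3 CPM, a log2 difference of -0.22 (SE 0.08, adjusted p = 0.161), and was called without Sustanon castrated boar 3 (adjusted p = 0.0431, beside 2.78% of all genes) or without Myodin uncastrated boar 23 (adjusted p = 0.0406, beside 6.51%).

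Among other genes of the same pathways, 4 were called by edgeR in Sustanon against control, where 5.07% of all genes were. Without the 3 libraries that go against their labels edgeR called no gene at all. The loss of the 4 calls in that fit is therefore not particular to them. SIL1, the nucleotide exchange factor of HSPA5, was 33.9 ± 4.40 CPM under Sustanon and 46.4 ± 8.14 CPM in controls (log2 fold change -0.45, adjusted p = 0.0206, and -0.37 with 0.178 without the 3 libraries); it was the single call among 13 further ER chaperones tested. It was also lower under Sustanon than under Myodin (-0.47, adjusted p = 0.0492), a call lost in 17 of 24 fits that leave out 1 animal (adjusted p up to 0.108). WFS1, an ER membrane protein linked to the unfolded protein response, was 26.2 ± 10.3 and 52.9 ± 14.3 CPM (log2 fold change -1.01, adjusted p = 0.0171, and -0.84 with 0.155 without the 3 libraries), 1 of 10 further regulators. PSPH, an enzyme of serine synthesis, was 3.75 ± 1.86 and 1.34 ± 0.604 CPM (log2 fold change 1.46, adjusted p = 0.029, and 1.13 with 0.24 without them), 1 of 19 further ATF4 and amino acid response genes. HSP90AB1, the constitutive cytosolic HSP90, was 479 ± 69.1 and 667 ± 69.3 CPM (log2 fold change -0.48, adjusted p = 0.0279, and -0.48 with 0.147 without them), 1 of 7 heat shock genes. PSPH and HSP90AB1 were also lost without control castrated boar 15 alone (adjusted p = 0.0586 and 0.0557), and in 8 and 7 of the 24 fits that leave out 1 animal. None of 8 further degradation, 16 translocation and glycosylation, 16 ER to Golgi and 12 plasma protein genes was called in that comparison.

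The animal classes were compared with treatment kept in the fit. Between uncastrated and castrated boars 0 members were called by edgeR, beside 1.88% of all genes, and 9 had an unadjusted p under 0.05 (17.9% of all genes did). The nearest was ATF6, the sensor that is cut in the Golgi to release a transcription factor. ATF6 ran from 75.2 to 110.8 CPM in the 7 uncastrated boars (median 84.2 CPM) and from 97.3 to 135.1 CPM in the 8 castrated boars (median 107 CPM), so the classes overlapped. Its log2 difference was -0.37 (SE 0.10, edgeR adjusted p = 0.0533). By DESeq2 3 members were called: ATF6 (adjusted p = 0.0169), CHAC1 (0.0227) and SEC61B (0.0461), the small subunit of the translocation channel. DESeq2 called 370 of 9250 genes there. In the edgeR fit SEC61B stood at -0.24 (adjusted p = 0.117), CREB3L3 at 0.31 (0.151), PDIA6 at -0.23 (0.205) and CHAC1 at 3.74 (0.0657). In control animals alone PDIA6 turned to 0.09 and SEC61B stood at -0.08, while CREB3L3 stood at 0.34 and ATF6 at -0.27. There 7 of 29 members were negative, with a median of 0.26, beside 18 and -0.09 with all treatments in the fit. Without control castrated boar 15, edgeR called ATF6 too (-0.41, adjusted p = 0.0328), beside 1.62% of all genes.

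With all treatments in the fit, most of these genes had a lower fitted level in sows than in castrated boars, and none was called. Over the 29 genes 24 had a negative fitted difference, among them all 6 lumen chaperones, all 3 disulfide isomerases and all 5 translocon genes. The median was -0.16, beside 0.01 over all genes. No member was called, and edgeR called 0 of all genes (0%), with 816 at an unadjusted p under 0.05 (9.86%), 7 of them members and all 7 lower, beside 5.54% of all genes; DESeq2 called 0 members. SEC61G, the gamma subunit of the channel, had the smallest p, with a log2 difference of -0.28 (SE 0.10, edgeR adjusted p = 0.441). PDIA4 stood at -0.31, HSP90B1 at -0.34, ATF6 at -0.21 and SEC61B at -0.19. In control animals alone the median of the members was 0.07, 10 of 29 were negative, and all 6 lumen chaperones had a positive fitted difference: CRELD2 stood at 0.56, HSPA5 and HYOU1 at 0.37, CALR at 0.30, HSP90B1 at 0.23 and CANX at 0.06. PDIA4 stood at 0.12 and SEC61G at -0.01, and the adjusted p was 1 for each of these genes. That contrast rests largely on the libraries that go against their labels, 2 of 3 sows and 1 of 3 castrated boars. Without them, 1 control sow against 2 castrated boars, the median was 0.20, on the assumption that the lone sow varies like the other groups. HSP90B1 then stood at 0.14 and PDIA4 at 0.20, while CALR turned to -0.05. Without the 3 libraries and with all treatments kept, the median was -0.19, HSP90B1 stood at -0.46 (edgeR adjusted p = 0.243) and 11 members had an unadjusted p under 0.05, beside 12.5% of all genes.

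The lumenal folding genes showed different orders in the classes. CRELD2, a secreted ER stress-responsive protein, was 28.8, 26.7 and 33.0 CPM in control castrated boars 13, 14 and 15. It was 99.8, 80.7 and 69.1 CPM in Sustanon castrated boars 1, 2 and 3, and 100.1 and 45.9 CPM in Myodin castrated boars 8 and 9. All 5 treated castrated boars thus lay above all 3 controls, with or without boar 15, the library whose Y-linked counts are near 0.

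In uncastrated boars the order was the opposite for Sustanon. CRELD2 was 87.4 and 112.9 CPM in controls 25 and 27, 58.6 and 52.1 CPM in Sustanon boars 19 and 20, and 66.9, 90.1 and 37.6 CPM in Myodin boars 22, 23 and 24. In sows it ran from 36.5 to 47.6 CPM in controls, from 27.9 to 60.8 CPM under Sustanon and from 27.2 to 49.5 CPM under Myodin, and all 3 groups overlapped. Of the control sows, 16 and 18 are libraries that go against their label, and sow 17 had 46.1 CPM. The fitted log2 fold change for Sustanon was 1.5 (SE 0.33) in castrated boars, -0.05 (SE 0.32) in sows (-0.15, SE 0.48, without the 3 libraries) and -0.85 (SE 0.39) in uncastrated boars. For Myodin it was 1.31 (SE 0.35), -0.16 (SE 0.32) and -0.63 (SE 0.35) in the same order. The 2 treatments share their controls.

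HYOU1, an HSP110-type partner of HSPA5, had the same order. It was 190.2, 180.6 and 199.7 CPM in the control castrated boars, 387.6, 469 and 309.6 CPM under Sustanon, and 430.2 and 270.2 CPM under Myodin. In uncastrated boars it was 427.8 and 433.4 CPM in controls, 327.5 and 296.6 CPM under Sustanon, and 347.1, 444.2 and 159.3 CPM under Myodin. HSPA5 followed with smaller steps, at 702.9 to 910.6 CPM in control castrated boars, 1037.1 to 1187.3 CPM under Sustanon, and 1680.8 and 1030.6 CPM under Myodin. In uncastrated boars HSPA5 was 1117.5 and 1190.2 CPM in controls and 811 and 735.8 CPM under Sustanon, while the Myodin boars, at 1193.3, 1157 and 848 CPM, overlapped the controls. In sows the fitted log2 fold change of HSPA5 was -0.42 (SE 0.25) under Sustanon and -0.7 (SE 0.25) under Myodin. That of HYOU1 was 0.21 (SE 0.31) and -0.51 (SE 0.31). Without the 3 libraries that go against their labels, which leaves 1 control sow, HSPA5 stood at -0.43 and -0.7 and HYOU1 at 0.17 and -0.55.

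**Figure D3:**
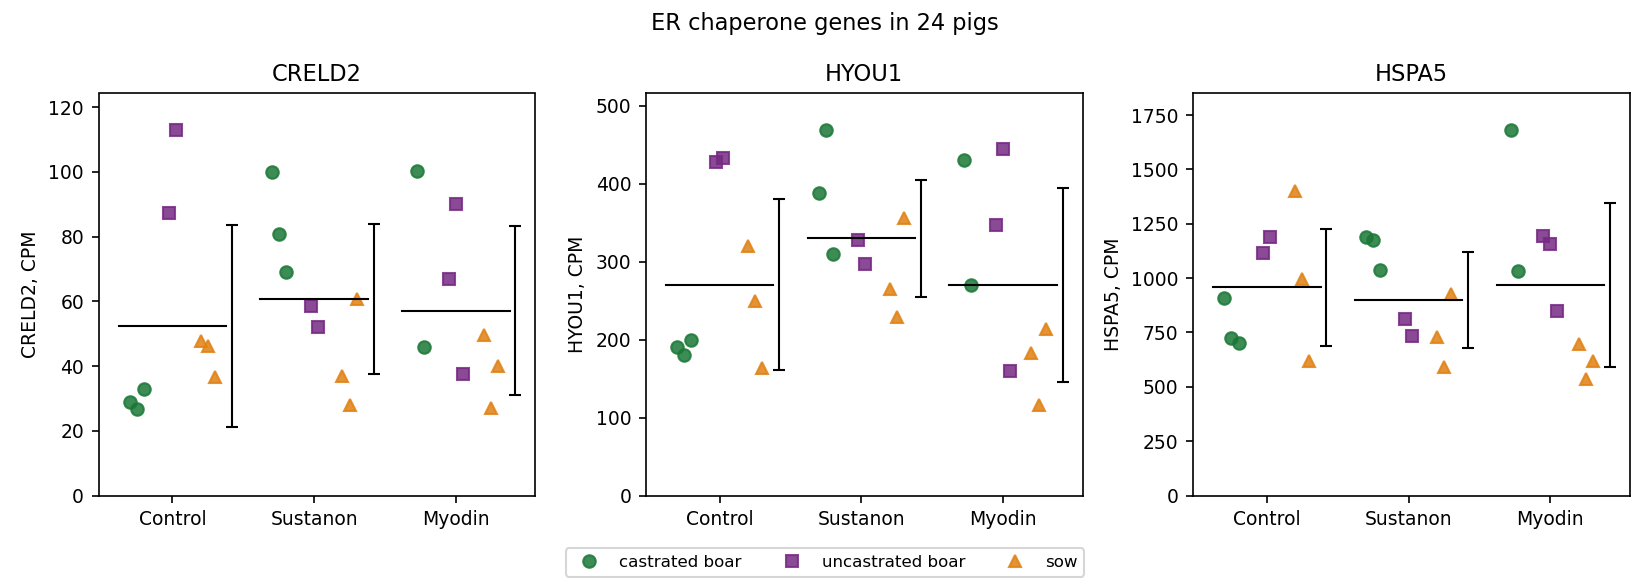
CRELD2, HYOU1 and HSPA5 in CPM in each liver by treatment and animal class, on axes that start at 0; lines are means of 8 animals and bars 1 SD. Treated castrated boars (green circles) lie above control castrated boars for all 3 genes, while both Sustanon uncastrated boars (purple squares) lie below both control uncastrated boars.

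Counting over all members, 11 of 29 were higher in every Sustanon castrated boar than in every control castrated boar, beside 9.17% of all genes, and 0 were lower, beside 8.3%. The 11 included 6 of the 9 lumenal folding genes (HSPA5, HSP90B1, CALR, HYOU1, CRELD2 and PDIA6). For Myodin, with 2 animals against 3, it was 15 of 29 and all 9 lumenal folding genes, beside 16.3% of all genes. In uncastrated boars, 2 Sustanon animals against 2 controls, 15 of 29 were lower, 7 of the lumenal folding genes among them, beside 25.8% of all genes. In the other direction, 3 members were higher in Sustanon uncastrated boars (25.1% of all genes) and 0 lower in Myodin castrated boars (15.3%). In Myodin uncastrated boars 1 was lower (10.4%) and 0 were higher (9.76%). In sows, where 2 of 3 control libraries go against their label, 2 were higher (9.65%) and 2 lower (9.29%) under Sustanon, and 1 higher (7.91%) and 1 lower (9.01%) under Myodin, with 0 lumenal folding genes among them. Both orders at once, above the controls in castrated and below them in uncastrated boars, held for 7 members under Sustanon, beside 1.64% of all genes, and for 1 under Myodin, beside 2.16%. Without control castrated boar 15 they were the same 7 (2.39%) and the same 1 (2.75%). These counts were chosen after the values were seen, and genes that vary together are not independent. Without control castrated boar 15 the 11 became 12 (12.8% of all genes) and the 15 for Myodin became 18 (20.9%).

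The difference between classes was tested in the fit of the 9 treatment by class groups. For the Sustanon effect in uncastrated boars against that in castrated boars and sows, edgeR called 0 members beside 0.0604% of all genes; 2 had an unadjusted p under 0.05, beside 7.43%. For Myodin it called 0, beside 0.109% of all genes, and 4 had an unadjusted p under 0.05, beside 12.3%. DESeq2 also called 0 members in both. CRELD2 came nearest, at -1.58 (SE 0.45, adjusted p = 0.315) for Sustanon and -1.20 (SE 0.42, adjusted p = 0.263) for Myodin. A direct test of castrated against uncastrated boars, added after seeing the data, gave CRELD2 a log2 difference of 2.35 for Sustanon (95% interval 1.28 to 3.42, unadjusted p = 1.89e-04, edgeR adjusted p = 0.143). It gave 1.93 for Myodin (0.89 to 2.97, adjusted p = 0.178). No member was called in either direct test, where 0.0242% and 0.121% of all genes were, and 6 and 11 members had an unadjusted p under 0.05 (9.22% and 11.6% of all genes did). Without control castrated boar 15 CRELD2 had an adjusted p of 0.219 for Sustanon and 0.302 for Myodin, and 5 and 8 members had an unadjusted p under 0.05 (7.82% and 8.87% of all genes). The class dependence of these genes is therefore a description of 2 or 3 animals per group.

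In control animals alone, CRELD2 was called between classes, higher in the 2 uncastrated boars than in the 3 castrated boars by 1.76 on the log2 scale (SE 0.35, edgeR adjusted p = 0.0265), in a comparison that called 0.761% of all genes. Without castrated boar 15 the difference was 1.85 with an adjusted p of 0.0704. Over the members, 14 of 29 were higher in both control uncastrated boars than in every control castrated boar, beside 20.4% of all genes, and 16 without castrated boar 15, beside 25.7%. The 2 that were lower in both were ATF6 and SEC61B, beside 18.8% of all genes. Markers of other cells were also higher in the control uncastrated boars. Those of stellate cells summed to 141 and 192 TPM against 68.5, 62.8 and 68 TPM, and those of plasma and B cells to 188 and 242 TPM against 171, 135 and 157 TPM, both without overlap. Those of T cells, macrophages and other leukocytes, at 402 and 455 TPM against 344, 355 and 394 TPM, did not overlap either. Hepatocyte, bile duct, endothelial and red blood cell markers overlapped. The part of any of these cells in the difference of CRELD2 was not tested.

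The mean z-score of the 9 lumenal folding genes puts this in a single value per animal. It averaged -0.67 ± 0.42 in control castrated boars, 0.60 ± 0.23 under Sustanon (SD, n = 3 each) and 1.5 ± 1.1 under Myodin (n = 2), where boar 8 had 2.28, the highest of all animals. In uncastrated boars it averaged 0.59 ± 0.20 in controls, -0.28 ± 0.33 under Sustanon (n = 2 each) and 0.14 ± 0.65 under Myodin (n = 3). Sows averaged -0.08 ± 0.86 in controls, -0.60 ± 0.56 under Sustanon and -0.60 ± 0.84 under Myodin (n = 3 each). Without the 3 libraries that go against their labels control castrated boars averaged -0.58 ± 0.56 (n = 2) and the 1 control sow left had -0.15. Over all classes the treatment means lay within 1 SD of each other, at -0.13 ± 0.74 in controls, -0.07 ± 0.67 under Sustanon and 0.20 ± 1.12 under Myodin (n = 8 each).

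**Figure D4:**
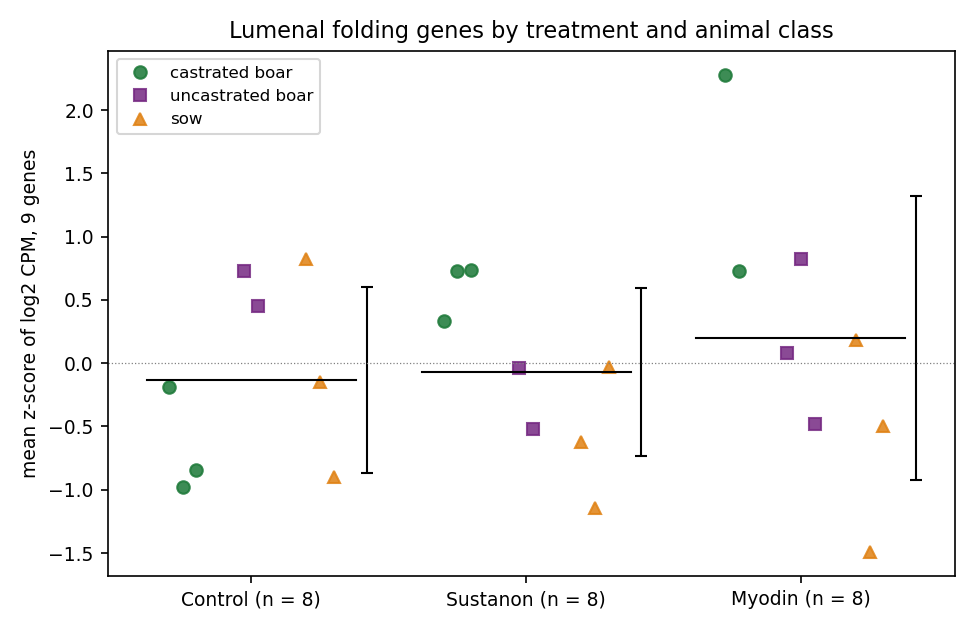
Mean z-score of log2 CPM over 9 lumenal folding genes in each liver, by treatment, with the animal class as colour and shape; lines are means of 8 animals and bars 1 SD. The treatment means are close, control castrated boars lie at or below -0.19 and treated castrated boars at or above 0.33, with Myodin castrated boar 8 at 2.28.

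The lumenal genes moved together from animal to animal. HSPA5 and HSP90B1 correlated over the 24 animals with Pearson's r = 0.93 and Spearman's rho = 0.89 (permutation p = 1e-05 for both, the smallest that 100000 permutations can give, adjusted to 6e-05 over 6 pairs). Within Sustanon, Myodin and control animals r was 0.95, 0.91 and 0.97, and without the 2 animals farthest from the median of HSPA5 it was 0.92. HSPA5 with PDIA4, an ER disulfide isomerase, gave r = 0.72 and rho = 0.64 (permutation p = 7e-05 and 0.00129, adjusted 0.00021 and 0.00258) and 0.58 without the 2 farthest animals. HSPA5 with HERPUD1, a stress-induced scaffold of ER-associated degradation, gave r = 0.63 and rho = 0.68 (permutation p = 0.00115 and 0.00034, adjusted 0.0023 and 0.00102), and 0.71 without them. Within treatments r ran from 0.75 to 0.77 for PDIA4 and from 0.69 to 0.74 for HERPUD1.

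ASNS showed no pooled correlation with CHAC1, DDIT3 or ATF4 that passed the test. Its r was -0.02 with CHAC1, -0.08 with DDIT3 and -0.01 with ATF4, and its rho -0.07, -0.15 and 0.04 (permutation p between 0.479 and 0.95 for all 6 values, adjusted between 0.718 and 0.95). Without the 2 farthest animals r was -0.07, -0.13 and 0.10. Within Sustanon, Myodin and control animals r was 0.91, -0.75 and 0.58 with ATF4, 0.63, -0.21 and 0.01 with CHAC1, and 0.52, -0.45 and -0.14 with DDIT3, so the pooled values cover groups with different signs. On deviations from treatment means DDIT3 had r = -0.16 with CHAC1 and 0.17 with ATF4. Of 10 planned pairs these 6 could be computed, since the other 4 involve genes not analysed here.

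As a description over all 406 pairs, with each value taken as its deviation from the treatment mean, the median r was 0.27. It was 0.78 among the 6 lumen chaperones (15 pairs) and 0.82 among the 3 disulfide isomerases, and 0.09 within the degradation genes (10 pairs). Those 10 pairs include the row named SYVN1, of uncertain identity. Its r was -0.21 with HERPUD1, -0.06 with SEL1L, 0.43 with DERL1 and -0.24 with SELENOS. The degradation pairs without it ran from -0.11 (DERL1 and SELENOS) to 0.82 (HERPUD1 and SELENOS). HYOU1 (0.86), CALR (0.81), CRELD2 (0.81) and SELENOS (0.79), a selenoprotein of the degradation complex, followed HSP90B1 (0.93) in likeness to HSPA5. SSR2 (-0.24), CREB3L3 (-0.25) and ASNS (-0.46) went the other way. All these values share the libraries and their scaling.

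**Figure D5:**
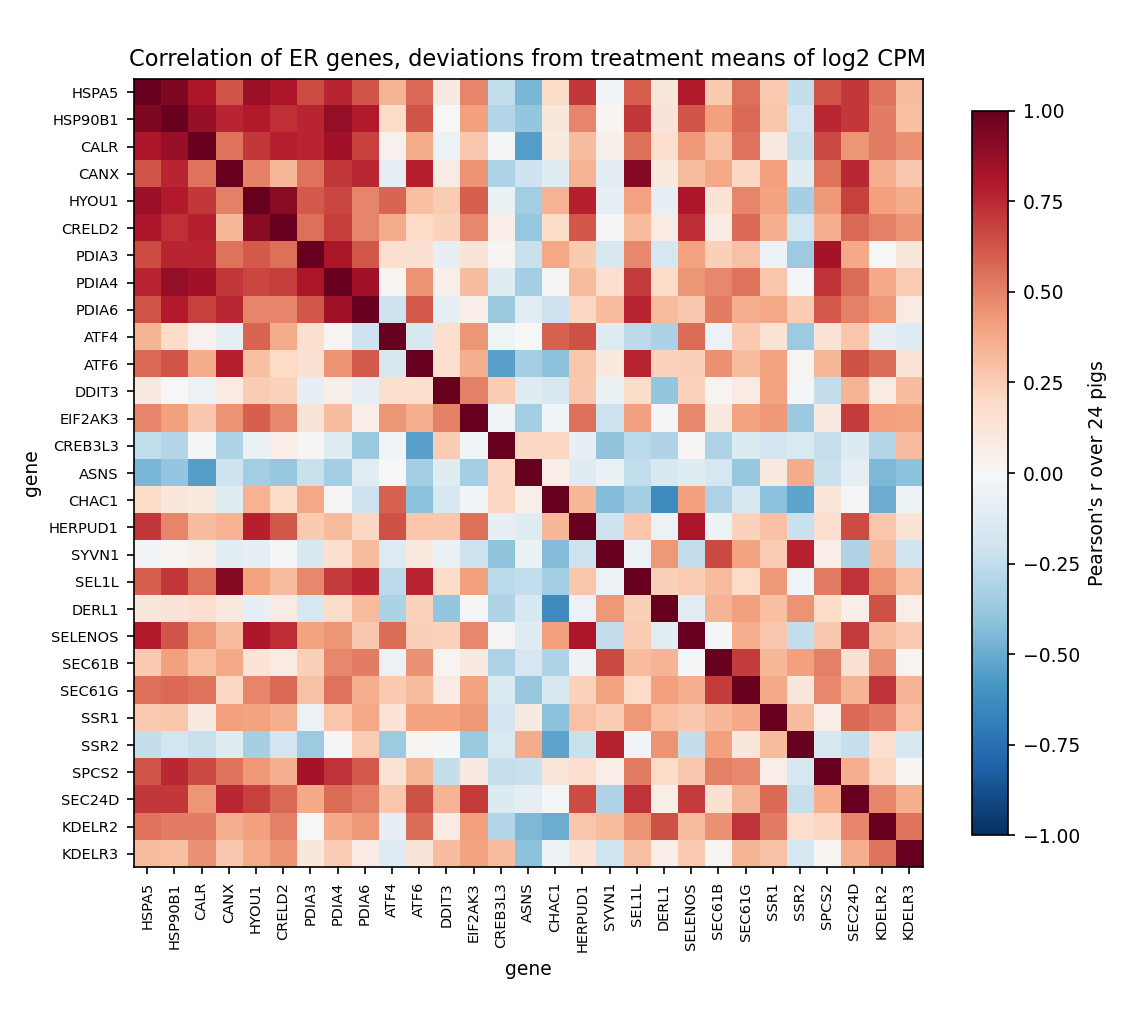
Pearson's r between the 29 genes over 24 pigs, from deviations of log2 CPM from treatment means; genes are ordered by role, red is positive and blue negative. The lumen chaperones and disulfide isomerases form a red block at the top left, and the rows of CREB3L3, ASNS and CHAC1 are pale or blue against most lumen chaperones and disulfide isomerases; CHAC1 is red against ATF4 at 0.59.

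Animals differed in how much each gene varied within a treatment. The SD of log2 CPM within groups was 2.14 for CHAC1, at percentile 99.8 of all tested genes, then 0.66 for CRELD2, 0.55 for HYOU1, 0.48 for ASNS and 0.45 for HSPA5. At the other end SSR2 and SPCS2, a subunit of signal peptidase, had 0.14. The median was 0.29 over the members and 0.30 over all genes, and 12 of 29 lay above the latter.

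Markers of other liver cells were checked beside these values. The 6 plasma and B cell markers found, whose cells also carry much ER, summed to 135 to 235 TPM under Sustanon, 142 to 229 TPM under Myodin and 135 to 242 TPM in controls. By class they moved partly with the lumenal folding genes. They summed to 188 and 242 TPM in control uncastrated boars against 168 and 150 TPM under Sustanon, and to 229 and 186 TPM in Myodin castrated boars against 171, 135 and 157 TPM in control castrated boars. In Sustanon castrated boars, at 170, 135 and 235 TPM, they overlapped the controls. Their part in the class order of CRELD2, HYOU1 and HSPA5 was not tested.

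The 5 stellate cell markers summed to 92 to 221 TPM under Sustanon, 59 to 172 TPM under Myodin and 62.8 to 192 TPM in controls. They too moved with the folding genes in part of the classes. In castrated boars they were 120, 191 and 124 TPM under Sustanon and 68.4 and 126 TPM under Myodin, against 68.5, 62.8 and 68 TPM in controls. In uncastrated boars they were 141 and 192 TPM in controls, 92 and 221 TPM under Sustanon and 66.1 to 92.1 TPM under Myodin. Sustanon castrated boars lay above their controls, and Sustanon uncastrated boars overlapped theirs. The summed hepatocyte markers were 115923, 82434 and 75942 TPM in Myodin uncastrated boars, below 151212 and 137542 TPM in control uncastrated boars. In the other groups of treated boars they overlapped the controls. The part of these markers in the class order was not tested.

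Beside them, the 3 bile duct markers summed to 16 to 54.4, 18.3 to 27.5 and 25.8 to 47.8 TPM in Sustanon, Myodin and control animals. The pancreatic gene CEL stayed at or under 0.2 TPM in all libraries, and no tested marker was called in the 3 treatment comparisons. In bulk liver, fewer cells of a type and less RNA per cell cannot be told apart.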

How the data were processed

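Liver RNA of 24 pigs was sequenced by the authors as stranded poly-A libraries, aligned with STAR 2.5 to Sscrofa11.1 according to the submitters' processing notes. How reads were assigned to genes, or shared between similar genes, is not given in the sources used here. The authors deposited raw counts per gene and the same libraries as log2(TPM + 1). Groups came from the sample labels, 1 library per animal; 0 per-sample columns were left unused.

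Counts were tested in R 4.3.3 with edgeR 4.0.16 (filterByExpr with a minimum count of 10, TMM, quasi-likelihood test, two-sided, Benjamini-Hochberg over 8279 genes, called at 0.05). The 3 treatments shared a single fit; classes were fitted with treatment, and interactions by cell means. CPM used TMM, and log2 CPM a prior count of 2. DESeq2 1.42.0, limma 3.58.1 on the deposited log2 values, RLE, no filter and left-out animals were alternatives. Correlations used 100000 permutations with scipy 1.17.1. Statistics across genes were tested on simulated data. Members and lists were chosen with earlier results of these data known. Members described were those called and, against control and between classes, the 5 with the smallest p. For Sustanon against Myodin they were CHAC1 and the 2 with an unadjusted p under 0.05, and for the interactions CRELD2. HSPA5, HSP90B1, ATF4, ASNS and DDIT3 were also described by their role, and CRELD2 and HYOU1 were followed by class after their values were seen. Of the pathway lists, called genes were named. Gene positions came from RefSeq's table of the same build, in which all 29 genes matched; 24 of 29 identifiers carried the same symbol in the gene name table, 4 had no name there and SYVN1 had another (FAU). Planned promoter and protein features were not computed.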

Additional observations from a re-analysis of the deposited data

Results flagged for a closer look

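DDIT3, which encodes the transcription factor CHOP, was 4.61 CPM in Myodin uncastrated boar 24, while the other 7 Myodin animals had 8.47 to 12.6 CPM. The gap on the log2 scale was 0.603 of the range of the group, above Dixon's critical value of 0.526 for 8 samples. It was the only 1 of 87 combinations of gene and treatment group, and chance alone marks about 1 group in 20.

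For 7 genes every Sustanon castrated boar lay above every control castrated boar, while every Sustanon uncastrated boar lay below every control uncastrated boar, which 1.64% of all genes tested also did. The log2 fold change in castrated boars minus that in uncastrated boars was 2.35 for CRELD2, 1.5 for HYOU1, 1.12 for HSPA5, 0.72 for CALR, 0.67 for HSP90B1, 0.38 for PDIA6 and 0.31 for SSR1. For Myodin the same held for PDIA6 alone, with a difference of 0.57, beside 2.16% of all genes. None of these differences passed the direct edgeR test added after seeing the data; the smallest adjusted p was 0.143, for CRELD2 under Sustanon.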

How the results depend on the processing

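No paired analysis was possible because each animal number belongs to a single animal and the groups share none. No called result reversed its direction. Some uncalled values did, among them ATF4 in the direct test for Myodin, at 0.06 without control castrated boar 15 (main -0.16). In controls only, 10 of 29 members were negative in sows against castrated boars (main 24). Between uncastrated and castrated boars PDIA6 stood at 0.09 (main -0.23), HSPA5 at 0.56 (main -0.09), HSP90B1 at 0.33 (main -0.18), PDIA4 at 0.33 (main -0.20) and CALR at 0.53 (main -0.03). HSPA5 stood at 0.37 (main -0.43), HYOU1 at 0.37 (main -0.36), CRELD2 at 0.56 (main -0.51), CALR at 0.30 (main -0.26), PDIA4 at 0.12 (main -0.31) and HSP90B1 at 0.23 (main -0.34) in sows against castrated boars, a contrast that rests largely on the 3 libraries against their labels; without those it gave 0.20 for PDIA4, 0.14 for HSP90B1 and -0.05 for CALR, with 1 control sow left. The call of CHAC1 in Sustanon against control held under DESeq2, RLE, no filter, limma on the log2 values, without castrated boar 15, with class as a covariate, in castrated boars and sows only, and in the 2 groups alone (adjusted p 0.0023 to 0.0493). The number of members called was 0 without the 3 libraries against their labels, a fit that called no gene at all, and 0 to 1 with each animal left out. In Sustanon against Myodin it was 1 (CHAC1) in castrated boars and sows only, and 0 to 1 with each animal left out. Between uncastrated and castrated boars it was 3 by DESeq2, 1 without castrated boar 15, 1 without the 3 libraries and 1 in controls only, where the median of the members was 0.26 against -0.09, and 0 to 2 with each animal left out. All genes called in Sustanon against control numbered 198 to 613 with each animal left out and 0 to 635 under the other settings (main count 420), lowest without Sustanon uncastrated boar 19 and highest without Sustanon castrated boar 1. For Sustanon against Myodin (55) the ranges were 0 to 541 and 9 to 390, and for uncastrated against castrated boars (156) 83 to 295 and 56 to 370. For the Sustanon interaction (5) they were 0 to 11 and 0 to 41, for the Myodin interaction (9) 3 to 202 and 1 to 96. Where edgeR called 0, other settings gave up to 8 for Myodin against control and up to 21 for sows against castrated boars, and 0 with each animal left out. The causes were not tested. CHAC1 rests on low counts, 0 to 28 per control library, so its fold change is imprecise. Leaving out an animal can leave 1 animal in a treatment by class group, assumed to vary like the others.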

Other observations

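Other lists of secretory genes were compared between sows and castrated boars with all treatments in the fit, and edgeR called no gene of them. The 13 further ER chaperones and lectin cycle genes, nearest in function to the folding genes, were divided, 7 higher and 6 lower in sows (median 0.01). Of 16 further translocation and N-glycosylation genes, 15 had a lower fitted level in sows, with a median log2 difference of -0.18, and of 16 further ER to Golgi transport genes, 15 did, with a median of -0.14. Of 8 further degradation genes, 7 were lower (median -0.06). The 12 secreted plasma proteins went the other way, with 11 higher in sows and a median of 0.10, while the 10 further regulators of the unfolded protein response were divided, 6 higher and 4 lower (median 0.03). The median over all genes tested was 0.01. In uncastrated against castrated boars, 14 of the 16 translocation genes (median -0.17), 13 of the 16 transport genes (-0.16) and 6 of the 8 degradation genes (-0.12) were also lower. The further ER chaperones (8 of 13, -0.08) and the plasma proteins (8 of 12, -0.07) were mostly lower there too, beside a median of 0.02 over all genes. Both contrasts include the 3 control libraries that go against their labels, and the treated animals. The members, mostly lower in both contrasts, had medians of 0.07 (sows) and 0.26 (uncastrated boars) against castrated boars in controls alone. For these other lists no values in controls alone are given. Genes of a pathway vary together, so these counts are a description.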
